A study of Mus musculus with 54 samples.

Results

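The endoplasmic reticulum (ER) stress and integrated stress responses were followed through 8 genes, *Hspa5*, *Hsp90b1*, *Xbp1*, *Herpud1*, *Ddit3*, *Atf4*, *Trib3* and *Asns*, in 54 libraries of adult mouse kidney made by different dissociation, storage and nuclei protocols. They are a named list, to which no threshold on measured values was applied, out of 33126 genes listed in at least 1 of the deposited files. Each protocol was applied to kidneys of 3 mice. In the C57BL/6J experiment, AFAPIL.1DEL males aged 19 weeks, all from one litter, gave cell suspensions by cold dissociation (a protease of *Bacillus licheniformis* on ice) or by warm dissociation (a commercial enzyme kit at 37 °C). Each suspension was profiled fresh, after cryopreservation for 6 weeks in DMSO and serum, and after methanol fixation on the 10x platform (chemistry version 2), and fresh suspensions were also profiled by bulk RNA-seq. In the Balb/c male experiment (18 weeks, version 2), fresh cold-dissociated cells, nuclei from flash-frozen kidneys (SN_FANS_3x500g) and intact kidney in bulk were compared. In the Balb/c female experiment (15 weeks, wild type, former breeders, version 3) there were cold-dissociated cells, fresh or cryopreserved for 2 weeks, nuclei by 3 protocols (SN_FANS_3x500g, SN_FANS_1x2000g and SN_sucrose), and bulk RNA-seq of intact kidney and of the cold suspension. The experiments differ in strain, genotype, sex, age, breeding history, chemistry and batch, which cannot be told apart. Each comparison was therefore made within one of them unless stated. The study describes the C57BL/6J mice as AFAPIL.1DEL without giving the genotype of each, and names no wild type group in that experiment.

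When unfolded proteins build up in the ER, membrane sensors start the unfolded protein response. IRE1 splices the mRNA of the transcription factor XBP1, ATF6 is cleaved to an active factor, and PERK phosphorylates the translation factor eIF2alpha. Phosphorylated eIF2alpha lowers general translation but lets ATF4 be made, and because other kinases sense amino acid shortage, viral RNA or heme shortage through the same site, this last arm is called the integrated stress response. The chaperones encoded by *Hspa5* (BiP) and *Hsp90b1* (GRP94) and the ER membrane protein encoded by *Herpud1*, which takes part in degradation of ER proteins, are usual targets of the first 2 arms. *Ddit3* (CHOP), *Trib3* and *Asns* (asparagine synthetase) are usual targets of ATF4.

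The promoters of some members hold elements through which these arms are known to act, and those stretches are shown for that reason. The 8 promoters were searched over the 250 bases before the start of transcription, on both strands, in RefSeq sequence of GRCm38.p6. The ER stress response element (ERSE, CCAAT and CCACG with any 9 bases between them) was found in *Hspa5* and *Hsp90b1*, and in 0.113% of the 32851 mouse promoters searched. Its short relative ERSE-II (ATTGG and CCACG with any 1 base between them) was found in *Herpud1* and in 0.0304% of promoters. The C/EBP-ATF response element, searched as TGATGNAAN, was found in *Asns* and *Herpud1* and in 3.44% of promoters. The core of the unfolded protein response element (TGACGTGG, 0.563% of promoters) and the cAMP response element (TGACGTCA, 1.55%) were found in none of the 8 windows. Matches are in capitals below, on the strand of the gene; *Hsp90b1* holds ERSE on both strands, and in *Herpud1* the left match is the C/EBP-ATF element and the right one ERSE-II.
Hspa5, chr2:34772020-34772048, plus strand: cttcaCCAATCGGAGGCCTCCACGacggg
Hsp90b1, chr10:86705521-86705668, minus strand: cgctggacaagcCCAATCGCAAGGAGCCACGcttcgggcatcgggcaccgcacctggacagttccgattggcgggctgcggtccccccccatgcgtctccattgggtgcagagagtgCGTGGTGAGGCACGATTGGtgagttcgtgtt
Herpud1, chr8:94386304-94386399, plus strand: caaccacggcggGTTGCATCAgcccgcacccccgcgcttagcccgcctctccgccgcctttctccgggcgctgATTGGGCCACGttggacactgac
Asns, chr6:7693214-7693242, minus strand: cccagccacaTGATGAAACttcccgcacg

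The *Hspa5* and *Asns* stretches lie upstream of the RefSeq start but inside the outermost exon of the GENCODE annotation, and the other stretches lie upstream of both. In that annotation (release M21, GRCm38) *Hspa5* lies at chr2:34771970-34777547, *Hsp90b1* at chr10:86690209-86705509, *Xbp1* at chr11:5520659-5525893, *Herpud1* at chr8:94386438-94395377, *Ddit3* at chr10:127290829-127293753, *Atf4* at chr15:80255184-80257541, *Trib3* at chr2:152337422-152344032 and *Asns* at chr6:7675169-7693254. *Hsp90b1* shares 4598 bases with a pseudogene (*1810014B01Rik*) on the other strand and *Herpud1* shares 535 bases with the antisense gene *Gm15890*. On its own strand *Hsp90b1* shares 977 bases with the transcript gene *Gm15344* and 133 bases with the miRNA gene *Gm25745*. As the strand setting of the bulk read counting was not given in the sources used here, bulk reads of the partners on the other strand cannot be told apart from those of the members, and those on the same strand cannot with any setting.

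Libraries held 983522 to 14064480 UMIs in the C57BL/6J 10x experiment, 1362810 to 9390078 in Balb/c males and 4734070 to 35170947 in Balb/c females, and bulk libraries held 2326998 to 31093949 reads. A UMI marks a captured transcript, so that molecules were counted. Levels are given as CPM (counts scaled to 1000000 in the library, or in the cell class of a library). Cryopreserved suspensions had lost most proximal tubule-like cells (6964 and 7686 in fresh cold- and warm-dissociated suspensions, 12 and 20 after cryopreservation in C57BL/6J), so that sums over all barcodes follow the cell composition, and tests were run within cell classes. Of 175959 barcodes, 8.68% fell in clusters left without a name. Libraries shared at most 2.05% of their barcode sequences. Apart from *Asns* and *Trib3*, each member had UMIs in every 10x library. *Asns* and *Trib3* were listed at 0 in many libraries, and *Trib3* was not listed in 8. As the authors left out, within a library, genes seen in few barcodes, a 0 for these genes may stand for a low count, and no fold is given for them against a 0.

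In bulk RNA-seq, the order of the levels per exon length (RPKM, CPM divided by the summed exon length in kb) differed between experiments among the highest members. *Hspa5* (89.9 to 165 RPKM) had a higher mean than *Hsp90b1* (76.8 to 176) in both C57BL/6J groups (115 against 86.8 in cold and 130 against 88.9 in warm suspensions) and a lower one in the 3 Balb/c groups. *Herpud1* lay at 52.9 to 92.5, in warm C57BL/6J suspensions close to *Hsp90b1* (86.6 ± 5.595 against 88.9 ± 14.2, SD, n = 3), and *Xbp1* (28.5 to 54.0) and *Atf4* (25.3 to 46.7) overlapped with each other. *Ddit3* lay at 2.77 to 8.89, *Asns* at 0.590 to 1.89 and *Trib3* at 0.0645 to 0.745. Levels of different experiments also carry the library method, which was ribosomal RNA depletion in C57BL/6J and Balb/c males and poly(A) selection in Balb/c females.

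**Figure D1:**
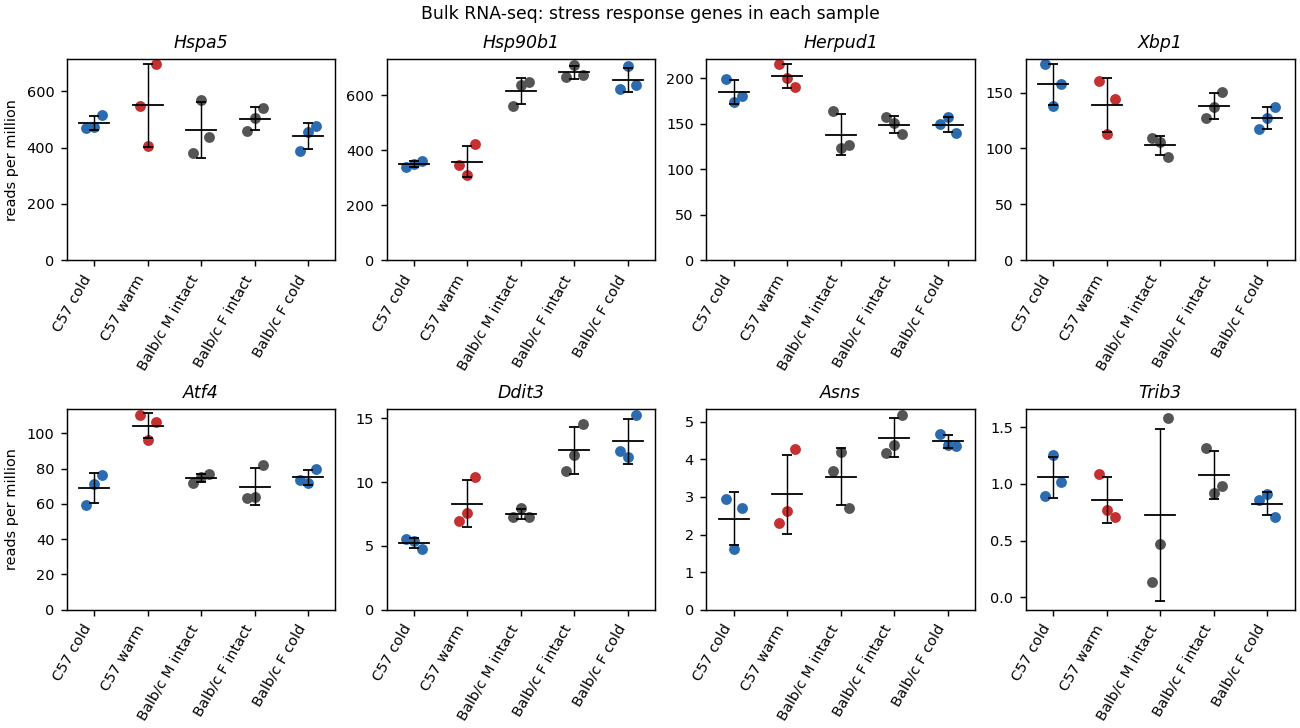
CPM of the 8 genes in each bulk library (points), with the mean (wide bar) and SD over 3 libraries, for cold- and warm-dissociated C57BL/6J suspensions, intact Balb/c male and female kidney and cold-dissociated Balb/c female suspensions. *Atf4* lay at 96.5 to 110 in the warm suspensions and at 59.6 to 76.2 in the cold ones, while the ranges of *Hspa5* and *Hsp90b1* overlapped.

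Warm dissociation was compared with cold dissociation. The protocols differ in temperature, enzyme, mincing, spin force and wash media, which cannot be told apart. Of the members, *Atf4* alone rose in bulk. It lay at 59.6, 71.5 and 76.2 CPM in the cold suspensions and at 110, 96.5 and 106 in the warm ones, with no overlap (log2 fold change 0.58, SE 0.10, adjusted p = 0.00316, edgeR quasi-likelihood test). This was 1 of 7 members tested. Of all 14102 genes tested 8.68% were called, 5.42% higher and 3.26% lower. *Trib3* had too few reads to be tested.

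*Ddit3* also separated the groups, at 5.51, 5.38 and 4.75 CPM in cold and 6.94, 7.55 and 10.4 in warm suspensions, but missed the threshold (log2 difference 0.64, SE 0.21, adjusted p = 0.0802). The chaperones overlapped between groups. *Hspa5* lay at 471, 474 and 517 CPM in cold and 547, 405 and 698 in warm suspensions (log2 difference 0.15, SE 0.15), and *Hsp90b1* differed by 0.01 (SE 0.10). *Herpud1* (0.11, SE 0.07), *Xbp1* (-0.20, SE 0.12) and *Asns* (0.29, SE 0.33) did not pass the test either.

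In the rest of the pathway, the counts of calls stand beside the 8.68% of all genes called in this comparison (5.42% higher). Of 17 genes of ER protein folding, 1 rose (*Dnajb9*, an ER co-chaperone of BiP, by 0.43 on the log2 scale) and none fell, with a median of -0.10 against -0.01 over all genes. None of 12 genes of ER degradation and translocation was called. The same held for a list of 12 genes of tRNA synthetases and of the tRNA export factor *Xpot*. Of 10 further regulators of the integrated stress response, 3 rose: *Atf3* by 6.25, the secreted stress factor *Gdf15* by 3.10 and *Ddit4*, an inhibitor of mTORC1 signaling, by 1.37 (median over the list 0.34). *Ppp1r15a* (GADD34), which returns eIF2alpha to its unphosphorylated state, rose by 2.79 (SE 0.12) and was the only 1 of 12 genes called among sensors and eIF2alpha control. Of 13 amino acid genes, the transporter *Slc38a2* rose by 0.57 and the transporter subunit *Slc3a2* fell by 0.45. For scale, all 10 immediate early genes rose (median 3.68, *Fosb* by 9.04, *Fos* by 7.53). So did 6 of 10 genes of a heat shock list (*Hspa1a* by 4.73), which holds the mitochondrial chaperonin genes *Hspd1* and *Hspe1* beside cytosolic ones. The genes named from both lists, and *Atf3*, belong to the stress set of the study. That set was picked from genes induced in these warm-dissociated samples, so that their rise was known beforehand. *Atf3*, *Ppp1r15a* and the immediate early genes also answer signals other than eIF2alpha.

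The makeup of the suspensions moved along with these values. Summed levels of 5 marker lists were higher in all warm than in all cold suspensions and those of 9 lists lower, among 20 lists. The 16 proximal tubule markers summed to 40580 to 42640 CPM in cold and 35180 to 37950 in warm suspensions, the 11 markers of the ascending loop of Henle to 8590 to 8789 and 10250 to 12140, and the 8 principal cell markers to 254 to 504 and 773 to 986, with no marker of these lists at 0. In bulk samples fewer cells of a type and less RNA per cell cannot be told apart, and the part of composition in the *Atf4* value was not tested.

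The cold suspension was also compared with intact kidney in Balb/c females. The intact kidneys were flash-frozen and the suspensions were filtered and washed, so that these steps and dissociation cannot be told apart. None of the 8 members was called, where 20% of 16538 genes were, 7.91% higher and 12.1% lower (2 members had an unadjusted p under 0.05, *Hspa5* and *Xbp1*). *Hspa5* was counted at 460, 507 and 540 CPM in intact kidney and 389, 456 and 476 in the suspension (log2 difference -0.23, SE 0.08, adjusted p = 0.0735, edgeR). *Atf4* lay at 63.2, 64.0 and 82.1 in intact kidney and 73.5, 72.0 and 79.9 in the suspension (0.06, SE 0.09), and *Ddit3* at 10.9, 12.1 and 14.5 against 12.4, 12.0 and 15.2 (0.04, SE 0.13). *Xbp1* (-0.16, SE 0.07), *Hsp90b1* (-0.11, SE 0.06), *Herpud1* (-0.05, SE 0.07), *Asns* (-0.08, SE 0.13) and *Trib3* (-0.42, SE 0.25) overlapped between the groups or fell short of the test.

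In the pathway lists, beside the 7.91% of all genes higher and 12.1% lower in this comparison, the calls were as follows. *Dnajc3*, *Pdia4* and *Ero1l* of 17 ER folding genes fell (by 0.38, 0.36 and 0.23), as did *Edem1* and *Ssr1* of 13 degradation and translocation genes, the sensor genes *Atf6* and *Eif2ak3* (which encodes PERK) of 12, and *Chac1* and *Cebpb* of 11 regulators. Of 14 amino acid genes, the serine synthesis genes *Phgdh* and *Psat1* rose by 0.64 and 0.37 and *Slc3a2* by 0.48, while *Cth* fell by 0.69. *Xpot* fell by 0.24 among 12 tRNA genes, none of the 10 immediate early genes was called, and *Hspa1b* fell by 0.70 among 10 heat shock genes. Marker sums moved here as well: those of 9 lists were higher and those of 5 lower in every suspension than in every intact kidney.

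In single cells, 4 of the members had their highest mean in the same class of fresh cold-dissociated cells, podocyte-like cells. In fresh cold-dissociated C57BL/6J suspensions *Hspa5* was highest in podocyte-like cells (1027 ± 119 CPM, SD, n = 3), above every library of every other class except 1 of the 3 dendritic-like values (154 to 1054). Connecting tubule-like cells followed at 565 ± 163, and among classes present in all 3 libraries B cell-like cells were lowest at 174 ± 12.9. From the ascending loop of Henle-like class (399 ± 115) down to macrophage-like cells (216 ± 62.9), neighbors in this order differed by less than their spread. *Hsp90b1* (650 ± 67.8) and *Xbp1* (331 ± 33.0) were also highest in podocyte-like cells, and *Xbp1* was lowest in T cell-like cells (16.0 to 98.2). *Herpud1* was highest in macrophage-like cells (166 ± 49.7), next to dendritic-like (157 ± 80.0), B cell-like (138 ± 43.0) and proximal tubule-like cells (134 ± 22.5), which did not separate. *Atf4* stood between 27.9 ± 18.5 in connecting tubule-like and 76.5 ± 24.7 in endothelial-like cells and gave no clear order. *Ddit3* lay at 66.9 ± 20.7 in podocyte-like cells and at or below 50 in the others.

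In fresh Balb/c female cells, among classes present in all 3 libraries, podocyte-like cells again led for *Hspa5*, *Hsp90b1* and *Xbp1*. Podocyte-like cells held 798 ± 194 CPM of *Hspa5*, 1141 ± 92.6 of *Hsp90b1* and 182 ± 13.9 of *Xbp1*. *Herpud1* was again highest in macrophage-like cells (192 ± 18.1). Proximal tubule-like cells, the most frequent class, had the lowest *Xbp1* (49.8 ± 2.74), *Atf4* (37.2 ± 3.73) and *Ddit3* (11.6 ± 0.436). These orders describe classes that share their libraries and were not tested.

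**Figure D2:**
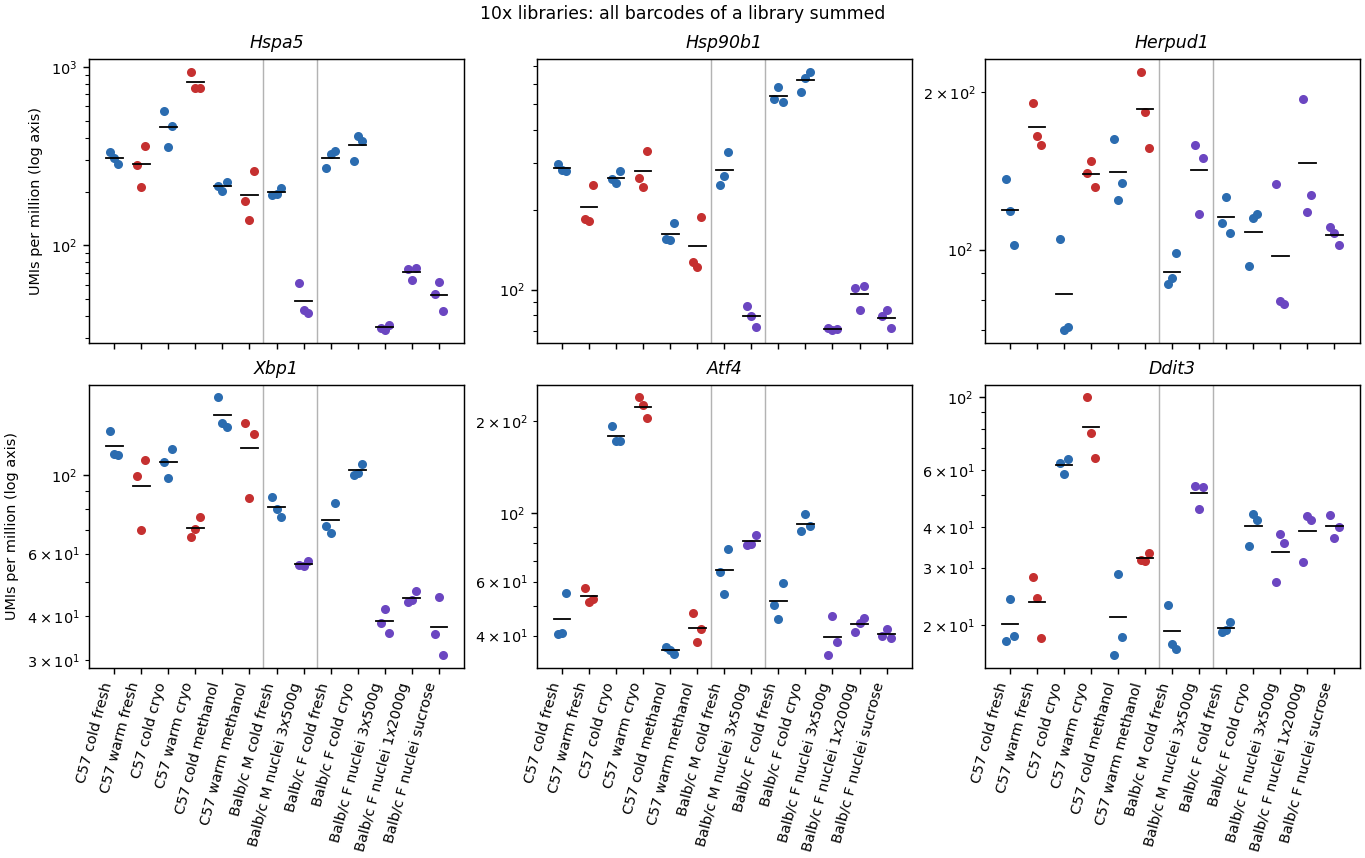
CPM (log axis, mitochondrial genes left out) of 6 genes in each of the 39 10x libraries, summed over all barcodes, with the mean of 3 libraries as a bar; blue marks cold, red warm and purple nuclei. *Atf4* lay at 172 to 238 in the cryopreserved C57BL/6J libraries and at 40.5 to 57 in the fresh ones, and *Hspa5* and *Hsp90b1* were lowest in nuclei.

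Member levels were then compared between warm and cold dissociation within cell classes of the fresh suspensions. Of 50 pairs of member and class tested in 12 classes, 5 were called, 4 higher and 1 lower. Of all 32271 pairs of gene and class 3.83% were called, 2.23% higher and 1.59% lower. *Hspa5* rose in macrophage-like cells, from 164, 198 and 286 CPM in the cold to 705, 511 and 664 in the warm libraries (log2 fold change 1.55, SE 0.25, adjusted p = 0.00173). In proximal tubule-like cells, where it was best counted, *Hspa5* lay at 277, 274 and 226 in cold and 221, 170 and 318 in warm libraries. *Atf4* rose in macrophage-like cells, from 37.8, 26.4 and 43.4 to 101, 97.1 and 85.7 (1.43, SE 0.32), and in principal cell-like cells (1.82, SE 0.43); its difference lay between 0.00 in proximal tubule-like cells and that value in the 6 classes where it was tested.

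In proximal tubule-like cells 2 members moved in opposite directions. *Hsp90b1* fell from 244, 249 and 255 to 158, 146 and 208 CPM (log2 fold change -0.50, SE 0.13, adjusted p = 0.0425) and *Herpud1* rose from 157, 132 and 112 to 205, 187 and 170 (0.55, SE 0.13, adjusted p = 0.0341), both without overlap between cold and warm. *Xbp1* was not called in any of 9 classes and *Ddit3* in none of 2. Apart from *Hspa5* in macrophage-like cells, each of these calls was lost when some 1 library was left out, and *Atf4* in macrophage-like cells had an adjusted p of 0.0539 in the edgeR fit with a replicate block, made from a code that recurs in the barcode names of the C57BL/6J libraries.

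Macrophage-like cells formed 2 clusters, one led by the chemokine genes *Ccl3* and *Ccl4* and the other by *Aif1* and complement genes, and the share of the former in the class differed between conditions (48.2% in fresh cold, 32.9% in fresh warm suspensions). In the *Ccl3*-led cluster *Hspa5* lay at 179, 198 and 300 CPM in cold and 888, 674 and 853 in warm libraries, and in the other cluster at 99.4, 198 and 267 against 192, 200 and 158. Clusters were formed on the expression of these same cells, so that the values describe them and were not tested.

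Of 124 pairs of ER folding gene and class 0 rose and 1 fell (*Canx*, an ER lectin chaperone, in 1 of 11 classes), with a median of 0.03 against -0.00 over all genes. *Ppp1r15a* rose in all 9 and *Atf3* in all 7 classes where they were tested, of 12 compared, and *Cebpb* in 3 of 6. Enough UMIs in the warm libraries alone can bring a gene into the test of a class, so that these shares favor rises. In all, 9 of 22 pairs of sensors and eIF2alpha control rose and 1 fell (*Mbtps1*), and 11 of 29 pairs of integrated stress response regulators rose and 2 fell. Of 32 pairs of the tRNA synthetase and export list 2 fell (*Iars* and the export gene *Xpot*, in 1 class each), and of 21 amino acid pairs 3 rose. Immediate early genes rose in 91 of 100 pairs and genes of the heat shock list in 32 of 86. *Fos* and *Jun* were higher in 12 of 12 classes and *Hspa1a* in all 10 where it was tested. The study had picked *Atf3*, *Fos*, *Jun* and *Hspa1a* from genes induced in these warm-dissociated samples, so that their rise was known beforehand.

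After cryopreservation of cold-dissociated C57BL/6J cells, *Atf4* was higher in 6 of the 7 classes where it was tested, by 1.43 to 2.47 on the log2 scale. Freezing, thawing, later loading and loss of cells go together in the cryopreservation comparisons and cannot be told apart. In all, 11 of 43 pairs of member and class were called (10 higher, 1 lower), where 8.25% of all pairs were called, 3.82% higher and 4.43% lower. In macrophage-like cells *Atf4* went from 37.8, 26.4 and 43.4 to 202, 212 and 161 CPM (2.47, SE 0.30, adjusted p = 5.21e-07). In T cell-like cells it went from 48.0, 65.4 and 42.1 to 221, 241 and 241 (2.27, SE 0.33) and in endothelial-like cells from 105, 65.0 and 59.6 to 189, 221 and 192 (1.53, SE 0.22). In none of these classes did fresh and cryopreserved libraries overlap. Dendritic-like (2.17), B cell-like (2.04) and podocyte-like cells (1.43) were called as well, the last with adjusted p = 0.0262, which 4 of 6 left-out libraries ended. In thin limb of Henle-like cells the difference was 1.31 without passing the test.

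*Hspa5* rose after cryopreservation in 3 of the 4 immune classes tested. Macrophage-like cells went from 164, 198 and 286 to 902, 654 and 550 CPM (log2 fold change 1.74, SE 0.24, adjusted p = 3.33e-06), B cell-like cells rose by 1.21 (SE 0.27) and T cell-like cells by 1.18 (SE 0.27), while dendritic-like cells differed by 0.57 (SE 0.46, adjusted p = 0.543) without passing the test. Without replicate 2 of the fresh cold libraries the B cell-like call was lost. *Hspa5* was lower in intercalated cell-like cells (-0.73, SE 0.21, adjusted p = 0.0494), a call that ended without any of the 6 libraries; there the *Slc4a1*-led cluster made up 31.0% of fresh and 69.0% of cryopreserved cells of the class. *Ddit3*, tested in 4 of 10 classes, was called higher in macrophage-like cells (1.76, SE 0.42), with 3 to 5 UMIs per fresh library and 15 to 29 per cryopreserved one. At such counts it could enter the test through the cryopreserved libraries alone, which favors a rise. *Hsp90b1* was not called in any of 10 classes (differences from -0.35 to 0.38), *Xbp1* in none of 7 and *Herpud1* in none of 5.

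Warm-dissociated cells showed the same 2 genes after cryopreservation. Here 9 of 43 pairs were called, all higher, where 8.97% of all pairs were called, 5.13% higher and 3.84% lower. *Hspa5* in macrophage-like cells rose from 705, 511 and 664 to 2330.5, 1874 and 1819.9 CPM (1.87, SE 0.16, adjusted p = 6.06e-06), and it rose by 1.24 in intercalated cell-like, 1.18 in T cell-like and 1.14 in principal cell-like cells. *Atf4* rose in macrophage-like cells from 101, 97.1 and 85.7 to 369, 262 and 258 (1.77, SE 0.24) and by 0.90 to 1.80 in endothelial-like, T cell-like, intercalated cell-like and B cell-like cells. Of the 9 calls, 4 were lost when some 1 library was left out (*Atf4* in T cell-like, B cell-like and intercalated cell-like cells and *Hspa5* in principal cell-like cells), and *Atf4* in endothelial-like cells was lost with DESeq2. *Hsp90b1*, *Xbp1*, *Herpud1* and *Ddit3* were not called in any class in which they were tested.

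**Figure D3:**
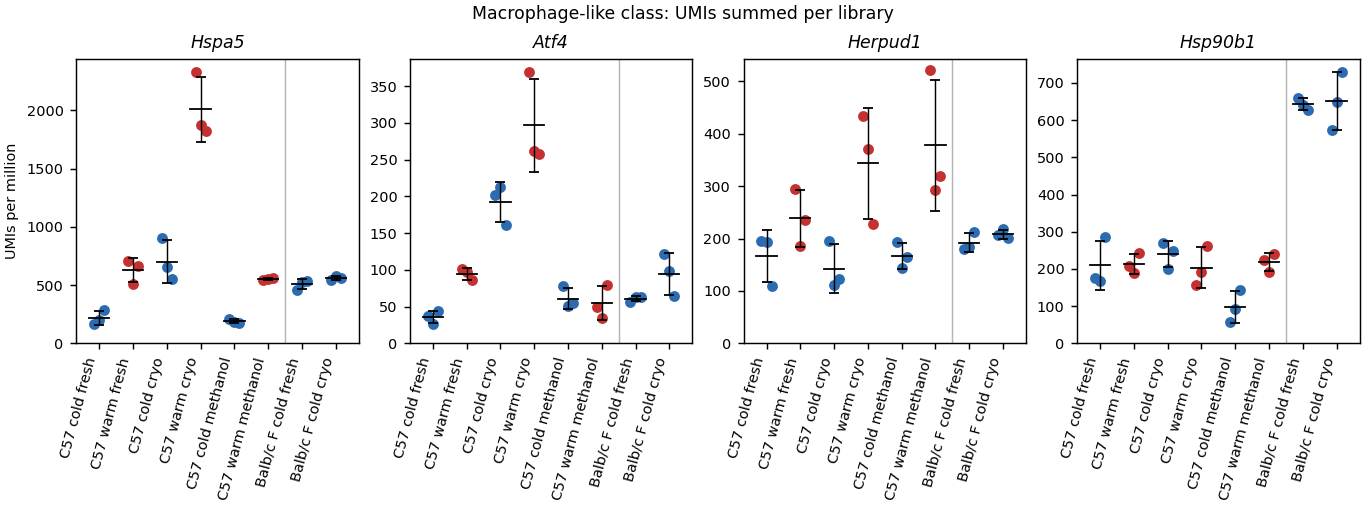
CPM of *Hspa5*, *Atf4*, *Herpud1* and *Hsp90b1* in macrophage-like cells, 1 point per library, with mean and SD over 3 libraries, for the 6 C57BL/6J conditions and fresh and cryopreserved Balb/c female cells. *Hspa5* reached 1819.9 to 2330.5 in warm, cryopreserved C57BL/6J cells and stayed at 461 to 576 in the Balb/c female cells, fresh or cryopreserved.

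The cells that survived cryopreservation were not the same mixture as the fresh ones. Of macrophage-like cells, 88.6% lay in the *Ccl3*-led cluster after cold dissociation and cryopreservation and 89.5% after warm dissociation and cryopreservation. In that cluster alone *Hspa5* lay at 179, 198 and 300 CPM in fresh cold, 925, 653 and 544 in cryopreserved cold, 888, 674 and 853 in fresh warm and 2458, 1914 and 1865 in cryopreserved warm libraries, with no overlap between fresh and cryopreserved libraries of either dissociation. *Atf4* in that cluster lay at 23.4, 29.1 and 44.7 in fresh cold and 208, 213 and 166 in cryopreserved cold libraries. RNA of other cells in the class moved too: the proximal tubule markers summed to 2704 to 5649 CPM in macrophage-like cells of fresh cold, 2934 to 6770 of fresh warm, 63.9 to 154 of cryopreserved cold and 111 to 199 of cryopreserved warm libraries. The 9 macrophage markers themselves summed to 14790 to 21840. Mitochondrial genes, left out of the sums, held 13.6% to 15.4% of the UMIs in cryopreserved and 26.1% to 31.7% in fresh cold-dissociated libraries. After warm dissociation they held 17.1% to 22.6% and 20.2% to 25.9%. The part of free RNA and of these shares in the results was not tested.

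The counts of the pathway lists stand beside the shares of all pairs given above for these comparisons. After cryopreservation of cold-dissociated cells 1 of 101 ER folding pairs rose (*Dnajb9*) and 0 fell, with a median of -0.05 against -0.03 over all genes. Of 18 pairs of integrated stress response regulators 6 rose. *Ppp1r15a* rose in all 8 and *Atf3* in all 4 classes where they were tested, of 10 compared. Enough UMIs in the cryopreserved libraries alone can bring a gene into the test, so that these shares favor rises. Of 21 pairs of the tRNA synthetase and export list 0 were called. In warm-dissociated cells 2 of 94 ER folding pairs rose and 2 fell, and 9 of 24 pairs of integrated stress response regulators rose. Immediate early genes rose in 69 of 79 pairs after cryopreservation of cold-dissociated and in 44 of 100 of warm-dissociated cells. Genes of the heat shock list rose in 35 of 74 and 34 of 88.

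Among cryopreserved cells, the warm-dissociated ones had more *Hspa5* than the cold-dissociated ones in 6 of 9 classes, and 13 of 37 pairs were called, all higher, where 7.79% of all pairs were called, 6.29% higher and 1.50% lower. Intercalated cell-like cells went from 245, 214 and 227 to 1199, 730.3 and 855 CPM (log2 fold change 2.05, SE 0.22, adjusted p = 1.88e-05), with no overlap. In the *Slc26a4*-led cluster of this class the values were 240, 349 and 279 against 1583, 773 and 909, and in the *Slc4a1*-led one 247, 159 and 194 against 1062, 685 and 809. Principal cell-like cells differed by 2.16 (SE 0.37), macrophage-like by 1.62 (SE 0.17), dendritic-like by 0.89, T cell-like by 0.76 and endothelial-like by 0.64. *Herpud1* was higher in intercalated cell-like (1.50, SE 0.34) and macrophage-like cells (1.36, SE 0.24), *Atf4* in intercalated cell-like (1.26), principal cell-like (1.38) and macrophage-like cells (0.70), and *Ddit3* in principal cell-like cells (2.27, SE 0.47). *Hsp90b1* was higher in intercalated cell-like cells alone among 9 classes (0.80, SE 0.19), and *Xbp1* in none of 3. Of the 13 calls, 3 held under every alternative, *Hspa5* in intercalated cell-like cells and *Hspa5* and *Herpud1* in macrophage-like cells.

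Whether storage and dissociation added up was tested as a difference of differences. Of 40 pairs in 8 classes 1 was called (0.692% of all pairs, 0.210% higher and 0.482% lower): *Hspa5* in intercalated cell-like cells was lower after cryopreservation of cold-dissociated cells (-0.73) and higher after that of warm-dissociated ones (1.24), a difference of 1.96 (SE 0.30, adjusted p = 0.00326). In macrophage-like cells *Hspa5* rose by 1.74 in cold- and by 1.87 in warm-dissociated cells.

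**Figure D4:**
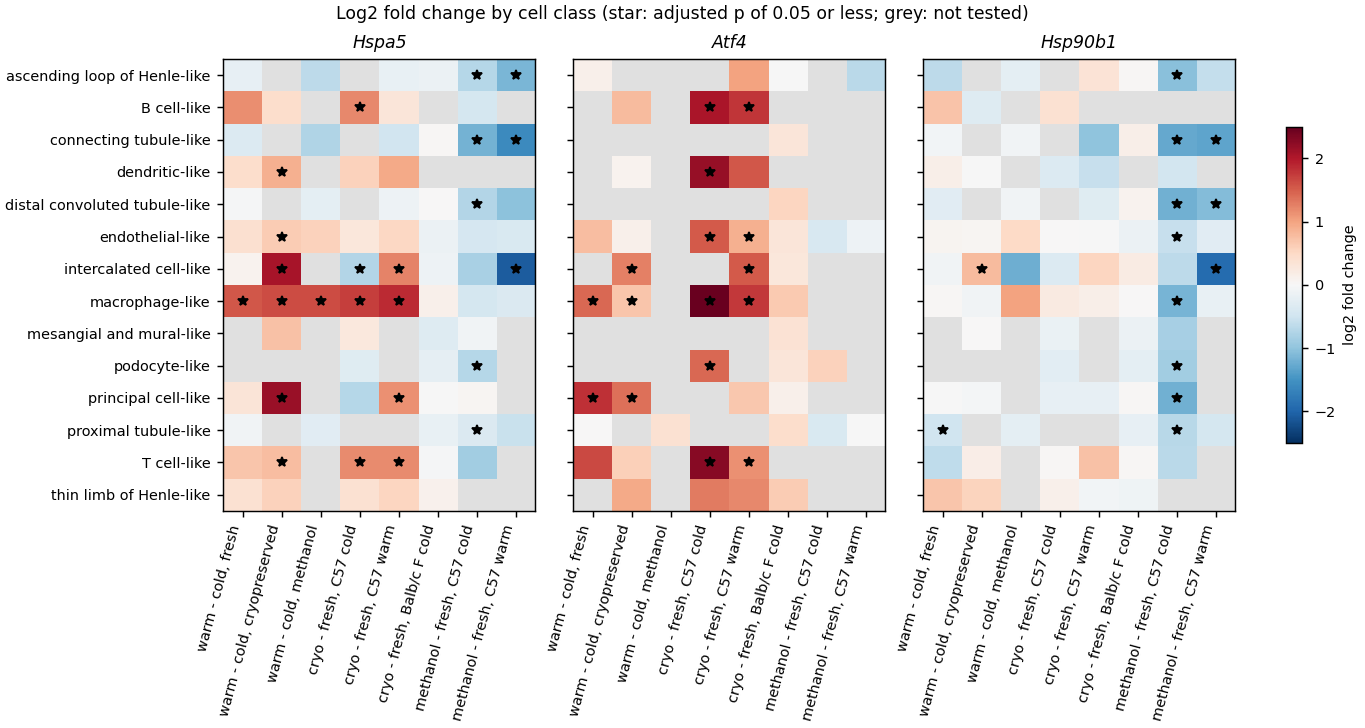
Log2 fold change of *Hspa5*, *Atf4* and *Hsp90b1* in each cell class (rows) for 8 comparisons of dissociation and storage (columns); red is higher and blue lower in the condition named before the minus sign, stars mark an adjusted p of 0.05 or less, and grey cells were not tested. Macrophage-like cells carry 5 stars for *Hspa5*, and the 2 methanol columns are blue for *Hsp90b1*.

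Balb/c female cells, stored cryopreserved for 2 weeks, were tested in 12 classes. Of 67 pairs 1 was called (4.36% of all pairs, 1.46% higher and 2.90% lower), *Ddit3* in proximal tubule-like cells, which rose from 12.0, 11.5 and 11.1 to 24.9, 48.7 and 32.7 CPM (1.53, SE 0.35, adjusted p = 0.00373) on 4 to 15 UMIs per cryopreserved library and was lost without replicate 2 of these. *Hspa5* differed by -0.32 to 0.13 over 12 classes, and in macrophage-like cells lay at 461, 528 and 537 in fresh and 540.4, 576 and 559 in cryopreserved libraries. *Atf4* was higher in 10 of 11 classes without a call (median 0.31), for example at 56.3, 63.0 and 62.7 in fresh and 121, 98.7 and 64.1 in cryopreserved macrophage-like cells. Of 174 ER folding pairs 1 rose, of 82 immediate early pairs 17 rose, and of 97 pairs of the heat shock list 1 rose and 6 fell. The falls were in the mitochondrial chaperonin genes *Hspe1* (4 of 12 classes) and *Hspd1* (2 of 12).

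The 2 cryopreservation effects differed in the test of their difference. Of 44 pairs in 8 classes 3 were called (0.591% of all pairs, 0.246% higher and 0.345% lower), each with a lower value in Balb/c female than in C57BL/6J cold-dissociated cells: *Hspa5* in macrophage-like cells (-1.62, SE 0.28, adjusted p = 0.00111), *Atf4* in macrophage-like cells (-1.84, SE 0.41, adjusted p = 0.0159) and *Atf4* in endothelial-like cells (-1.26, SE 0.29, adjusted p = 0.0420). The *Atf4* difference was below 0 in all 8 classes. Of Balb/c female macrophage-like cells 56.6% of fresh and 95.7% of cryopreserved ones lay in 1 of their 2 clusters, and in that cluster *Hspa5* was at 529.7, 604 and 579.9 in fresh and 546, 581 and 561 in cryopreserved libraries. Storage time, spin force, strain, genotype, sex, age, breeding history and chemistry version all differ between these experiments and cannot be told apart.

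Methanol fixation went with lower chaperone levels. Fixation, storage for months, rehydration and later loading with fewer cells aimed for go together in the methanol comparisons and cannot be told apart. In cold-dissociated cells 14 of 45 pairs were called, 13 of them lower, where 21.3% of all pairs were called, 9.88% higher and 11.4% lower. *Hsp90b1* fell in 8 of 12 classes and lay below fresh in all 12, by 0.46 to 1.27 on the log2 scale. In proximal tubule-like cells it went from 244, 249 and 255 to 141, 138 and 164 CPM (-0.70, SE 0.11, adjusted p = 0.000975), and in podocyte-like cells from 728, 606 and 615 to 337, 403 and 371 (-0.86, SE 0.18), neither with overlap. *Hspa5* fell in 5 of 12 classes, most in connecting tubule-like cells (-1.17, SE 0.23, adjusted p = 0.00447). *Xbp1* rose in endothelial-like cells (0.77, SE 0.26), and *Atf4* and *Herpud1* were called in none of 3 and 8 classes. With the replicate block, 16 pairs were called, among them all of these 14, while 7 of the 14 were lost when some 1 library was left out.

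After warm dissociation, methanol-fixed cells had 7 of 27 pairs called (10.3% of all pairs, 4.33% higher and 5.99% lower). *Hspa5* and *Hsp90b1* each fell in 3 of 7 classes, and *Ddit3* rose in proximal tubule-like cells from 16.0, 18.5 and 14.9 to 25.3, 27.5 and 34.1 CPM (0.76, SE 0.20). None of the 7 calls was kept without replicate 2 of the warm methanol libraries. With the replicate block 9 pairs were called, and *Hsp90b1* in distal convoluted tubule-like cells, 1 of the 7, was lost (adjusted p = 0.0639, edgeR). The median number of UMIs per barcode was 802 to 937 in methanol-fixed and 1192 to 1542 in fresh libraries. Mitochondrial genes, left out of the sums, held 15.0% to 20.4% of the UMIs in methanol-fixed and 26.1% to 31.7% in fresh cold-dissociated libraries. In endothelial-like cells of the cold-dissociated libraries the proximal tubule markers summed to 4329 to 7831 CPM after methanol and 2555 to 3727 in fresh cells, and in macrophage-like cells to 6835 to 8792 and 2704 to 5649. The part of these differences in the results was not tested. In the cold-dissociated cells, where 9.88% of all pairs were higher and 11.4% lower, 27 of 128 pairs of the ER folding list were lower and 2 higher (*Pdia3* lower in 9 of 11 classes and *Calr* in 8 of 13). In the heat shock list 14 of 72 pairs were lower (the cytosolic *Hsp90ab1* in 12 of 13 classes) and 11 higher (the mitochondrial *Hspe1* in 9 of 13).

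Warm and cold dissociation could still be told apart after methanol fixation in macrophage-like cells, where *Hspa5* lay at 213, 186 and 175 CPM in cold and 546, 552 and 558 in warm libraries (1.64, SE 0.24, adjusted p = 0.000310) and *Herpud1* at 194, 143 and 164 against 521, 293 and 319 (1.25, SE 0.33), the latter lost with the replicate block (adjusted p = 0.0906, edgeR). These were the 2 calls among 23 pairs, both higher (2.18% of all pairs, 1.31% higher and 0.870% lower). The difference of the methanol effects between warm and cold dissociation was called for 0 of 34 pairs by edgeR, with 4 at an unadjusted p under 0.05. Of all pairs 0.00399% were called. With 3 libraries per group no difference was detected.

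Nuclei from frozen kidney held far less chaperone RNA than cells. In Balb/c females, nuclei of the SN_FANS_3x500g protocol had 58 of 65 pairs called against fresh cells (2 higher, 56 lower), but 80.7% of all pairs were called, 41.7% higher and 39.0% lower, and introns were counted for nuclei alone. *Hspa5* and *Hsp90b1* fell in 11 of 11 classes each, with medians of -3.75 and -3.50 on the log2 scale against 0.12 over all genes. In proximal tubule-like cells *Hspa5* lay at 227, 278 and 253 CPM in cells and 26.8, 28.5 and 33.4 in nuclei. *Xbp1* and *Herpud1* fell in 10 of 10 classes (medians -1.81 and -1.29) and *Atf4* in 10 of 11 (median -1.18). *Ddit3* stood apart with 2 classes higher and 2 lower of 9; it rose in proximal tubule-like (0.81, SE 0.19) and intercalated cell-like nuclei (0.85, SE 0.26).

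In Balb/c males 23 of 40 pairs were called, 4 higher and 19 lower, where 73.4% of all pairs were called, 43.7% higher and 29.7% lower. *Hspa5* fell in 8 of 8 classes (median -1.84) and *Hsp90b1* in 6 of 8 (median -2.27), against a median of 0.54 over all genes. *Ddit3* rose in 3 of 5 classes, in proximal tubule-like nuclei from 9.86, 6.56 and 9.52 to 58.3, 46.2 and 59.5 CPM (2.21, SE 0.26). Over all barcodes the male cell libraries held only 38, 45 and 23 UMIs of *Ddit3*. *Xbp1* fell in 5 of 6 classes (median -0.93). *Atf4* was called in none of 6 classes. *Herpud1* was higher in 6 of 7 classes (median 0.47) with a call in intercalated cell-like nuclei alone (1.47, SE 0.42), where in females it fell in every class tested; the difference between the experiments was not tested. ER folding genes fell in 74 of 96 pairs in males and 155 of 167 in females, and genes of the heat shock list in 50 of 50 and 92 of 94. Of the sensors and eIF2alpha control list, 20 of 41 pairs rose and 6 fell in males, and 53 of 110 rose and 32 fell in females, where 43.7% and 41.7% of all pairs rose.

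The 3 nuclei protocols, run on kidneys of Balb/c females, also differed in chaperone levels. They differ in washes, spin force and sorting or sucrose cleanup, among other steps, which cannot be told apart. The study reports more contamination with mitochondrial genes in SN_FANS_1x2000g. Those genes are not listed in the nuclei files, and the part of RNA from outside the nucleus was not tested. Against SN_FANS_3x500g (3 washes at 500 g), SN_FANS_1x2000g (1 wash at 2000.0 g) nuclei had 23 of 72 pairs called, 22 of them higher, where 13.5% of all pairs were called, 9.04% higher and 4.50% lower. *Hspa5* rose in 10 of 13 classes and lay above 0 in all 13 (median 1.11). In ascending loop of Henle-like nuclei it went from 35.5, 32.7 and 29.6 to 86.3, 83.4 and 81.3 CPM (1.39, SE 0.10, adjusted p = 5.21e-06), and in endothelial-like nuclei from 77.3, 74.0 and 82.9 to 161, 145 and 159 (1.02, SE 0.11). *Hsp90b1* rose in 6 of 14 classes, *Herpud1* in 4 of 13, *Xbp1* and *Ddit3* in 1 class each and *Atf4* in 0 of 10. *Trib3*, tested in endothelial-like nuclei alone, was lower (-1.02, SE 0.31, adjusted p = 0.0256). Over all barcodes it had only 20, 32 and 42 UMIs in SN_FANS_1x2000g and 16, 46 and 28 in SN_FANS_3x500g libraries, with overlapping CPM.

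**Figure D5:**
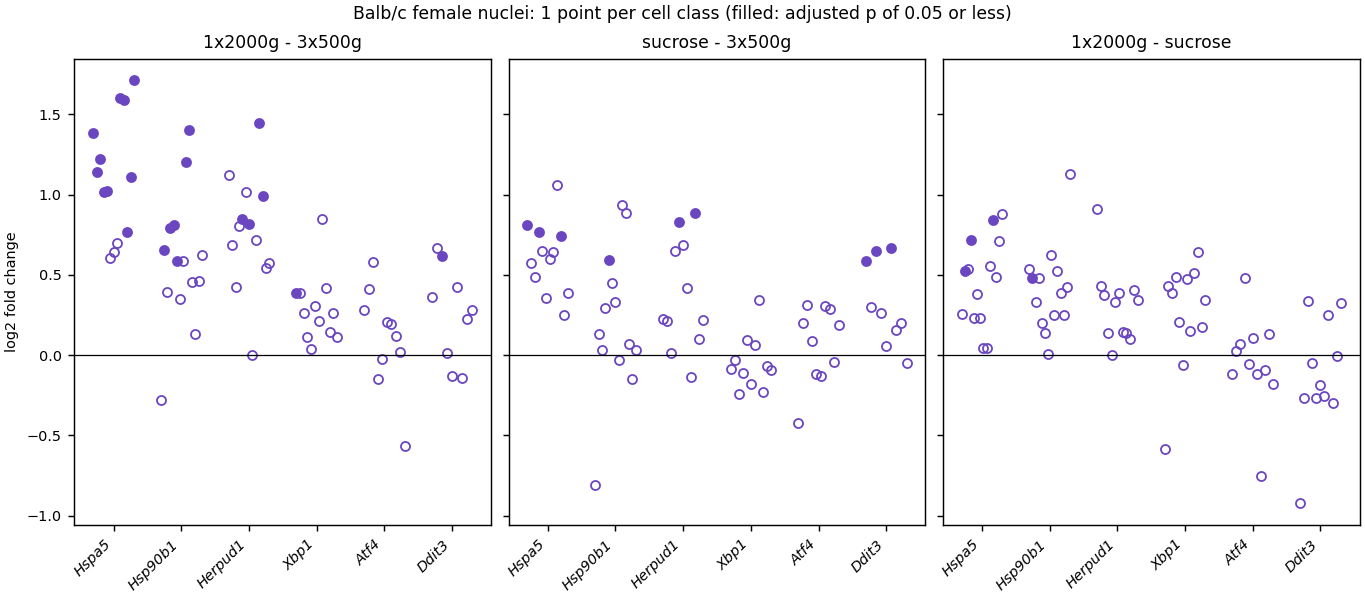
Log2 fold change of 6 genes between nuclei protocols in Balb/c females, 1 point per cell class, filled where the adjusted p was 0.05 or less. All 13 *Hspa5* points lie above 0 for SN_FANS_1x2000g against SN_FANS_3x500g (0.60 to 1.71), while *Atf4* points scatter around 0.

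The remaining pairs of protocols had fewer calls. Against SN_FANS_3x500g, SN_sucrose nuclei had 9 of 67 pairs called, all higher (18.9% of all pairs, 10.4% higher and 8.47% lower), with *Hspa5* in 3 of 12 classes, *Ddit3* in 3 of 9, *Herpud1* in 2 of 11 and *Hsp90b1* in 1 of 13. Against SN_sucrose, SN_FANS_1x2000g nuclei had 4 of 75 pairs called, all higher (4.64% of all pairs, 1.91% higher and 2.73% lower), *Hspa5* in 3 of 14 classes and *Hsp90b1* in 1 of 14. None of these 4 calls was kept without replicate 1 of the SN_FANS_1x2000g libraries. The change of SN_FANS_1x2000g against SN_FANS_3x500g extended to the ER folding list, with 90 of 172 pairs higher and 1 lower (median 0.79 against -0.01 over all genes, *Ppib* in 13 of 14 and *Calr* in 12 of 14 classes). In the heat shock list 43 of 87 pairs were higher and 3 lower, with *Hspa8* higher in 11 of 14 and the mitochondrial *Hspe1* in 9 of 9 classes. The ER folding list was also higher in SN_sucrose than in SN_FANS_3x500g nuclei, in 58 of 162 pairs with 0 lower (median 0.57). In SN_FANS_1x2000g against SN_FANS_3x500g nuclei none of 129 pairs of sensors and eIF2alpha control rose. None of 105 pairs of the tRNA synthetase and export list was called. Markers moved beside these values: the 12 endothelial markers summed to 524 to 775 CPM in SN_FANS_3x500g and 928 to 1278 in SN_FANS_1x2000g libraries, and the 10 podocyte markers to 2275 to 3006 and 1985 to 2005. Their part in the class results was not tested.

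*Trib3* and *Asns* stayed near the limit of detection in the 10x libraries. The most UMIs of *Trib3* in a library were 46, in female SN_FANS_3x500g nuclei, and in C57BL/6J libraries it was listed with 10 UMIs in 1 fresh cold library and at 0 in the others that list it. *Asns* had 46 to 80 UMIs in fresh and 25 to 40 in cryopreserved Balb/c female cells, or 4.597, 4.30 and 4.03 against 6.29, 7.32 and 12.9 CPM over all barcodes, and 14, 22 and 11 in the fresh cold C57BL/6J libraries. It was listed at 0 in all cryopreserved C57BL/6J libraries. *Asns* could be tested in female cells against nuclei alone, where it fell in connecting tubule-like (-3.65, SE 0.53) and proximal tubule-like nuclei (-3.83, SE 0.51).

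Genes with a pattern like that of a member were sought in endothelial-like cells of the 18 C57BL/6J libraries, by Pearson's r of log2(CPM + 1) over 5744 genes. The closest were *Elf1*, *Klf6* and *Srsf5* for *Hspa5* (r = 0.84 to 0.82), *Pdia4*, *Nckap1* and *Stag2* for *Hsp90b1* (0.87 to 0.79), *Eef1a1*, *Hnrnpa1* and *Fosb* for *Atf4* (0.89 to 0.87) and *Tm2d1*, *Psmb6* and *Psma4* for *Xbp1* (0.91 to 0.88). For *Herpud1* they were *Acaa2*, *Ccdc107* and *Nfu1* (0.78 to 0.75), and for *Ddit3*, on few UMIs, *Serbp1*, *Dek* and *Klf10* (0.96). *Pdia4*, a protein disulfide isomerase of the ER, was the only 1 of these 18 genes in the ER folding list. The points share their libraries' depth and storage, so that these values are a description.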

How the data were processed

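Per the labels and the study's methods, 10x reads were aligned by the authors with Cell Ranger 2.1.1 to mm10, cells were told from empty droplets with EmptyDrops, genes seen in few cells and barcodes with extreme gene numbers or mitochondrial shares were removed, and UMI counts per gene and barcode were deposited without normalization (exons for cells, introns and exons for nuclei). Bulk reads were aligned with STAR 2.6.1a to GRCm38 and counted with featureCounts, and raw read counts per gene were deposited. Strandedness is not given in the sources used here. The files listed 0 to 6658 genes at 0 UMIs per 10x library, and of the genes above 0 at most 12.1% were seen in under 10 barcodes, so a listed 0 can stand for a removed gene.

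Barcodes were clustered in 5 sets with leidenalg 0.10.2 (resolution 2, or 1 as an alternative), and clusters were named X-like from markers; no doublet caller was run, and leaving out the 5% of barcodes with most UMIs was an alternative. UMIs were summed per library and class with at least 10 barcodes in each library, mitochondrial genes left out. These sums, and reads per gene in bulk, went into edgeR 4.0.16 (R 4.3.3; quasi-likelihood F test, TMM, filterByExpr, Benjamini-Hochberg over the genes of a class, call at adjusted p of 0.05 or less). Background percentages pool genes over the same classes. Alternatives were DESeq2 1.42.0, RLE factors, the exact test, no low-count filter, a log2 fold change of at least 1, at least 20 barcodes, mitochondrial genes kept, each library left out in turn and, added after seeing the data, a replicate block and a fit on genes above 0 in every library. The scripts were tested on simulated data. The members and lists were chosen with earlier results of these data known. All members were named; from each other list, at most 3 called genes per direction in bulk and 2 genes called in most classes in 10x data; genes leading a cluster were named outside this rule.

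Labels do not pair replicates. Barcode names in the C57BL/6J files carry a code (20, 21 or 22) that recurs across its conditions. The study states that aliquots of the suspensions were stored, so fresh and stored libraries share suspensions. The code is the only sign of which ones do. Tests without the block are printed as the main ones and treat these libraries as independent. Deviations from the group means correlated by more than 0.1 in every same-code pair for methanol after cold (r across genes 0.380 to 0.465) and warm dissociation (0.108 to 0.253), not for the other 5 comparisons.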

Additional observations from a re-analysis of the deposited data

Results flagged for a closer look

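In intercalated cell-like cells of C57BL/6J mice, the difference of *Hspa5* between cryopreserved and fresh cells was negative after cold and positive after warm dissociation, and differed between them by 1.960 on the log2 scale (SE 0.304, adjusted p = 0.00326, edgeR interaction term). It stood out because the test of the difference between the 2 dissociation methods passed the threshold, and it did so under every alternative run for it. *Hspa5* was at 456, 328 and 377 CPM in fresh and 245, 214 and 227 in cryopreserved cold-dissociated cells, and at 421, 406 and 424 against 1199, 730.3 and 855 in warm-dissociated cells, so that every cryopreserved library lay below the fresh ones in the former and above them in the latter. The difference after cold dissociation alone (-0.73, adjusted p = 0.0494) was no longer called without any 1 of its 6 libraries. The *Slc4a1*-led cluster made up 31.0% of fresh and 69.0% of cryopreserved cells of the class after cold dissociation, and 16.8% and 58.8% after warm dissociation, and the part of these shares was not tested.

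For 3 pairs the effect of cryopreservation differed between the Balb/c female and the C57BL/6J experiment, again by an interaction term that passed the threshold. *Hspa5* in macrophage-like cells differed by -1.621, lower in Balb/c females (SE 0.281, adjusted p = 0.00111), under every alternative. *Atf4* in macrophage-like cells differed by -1.844 (SE 0.410, adjusted p = 0.0159), a call lost without replicate 2 of the fresh cold C57BL/6J libraries and without replicate 3 of the cryopreserved Balb/c female libraries. *Atf4* in endothelial-like cells differed by -1.262 (SE 0.291, adjusted p = 0.0420), lost under 7 of 15 alternatives. Strain, genotype, sex, age, breeding history, chemistry, spin force and storage time differ along with the experiment and cannot be told apart.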

How the results depend on the processing

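Of 184 calls of a member in bulk or in a class, 69 were lost without some 1 library and 113 were kept in every alternative fit in which they were tested, *Atf4* in warm against cold bulk suspensions among them. Outside the comparisons with or between nuclei these were 38 and 27 of 67. A log2 fold change of at least 1, required in addition outside the interactions, left 94 of the 113, without *Atf4* in bulk, and 23 of the 27. Numbers of calls moved by more than 1.5 times as follows. With a log2 fold change of at least 1 required, they were 0 in warm against cold bulk, 3 in fresh warm against cold cells, 6 in methanol after cold dissociation, 8 in cryopreserved warm against cold cells, 13 for SN_FANS_1x2000g and 0 for SN_sucrose against SN_FANS_3x500g, and 0 for SN_FANS_1x2000g against SN_sucrose. With DESeq2 they were 1 in suspension against intact kidney, 3 in fresh warm against cold cells, 9 and 3 in methanol after cold and warm dissociation, 6 in cryopreserved and 1 in methanol-fixed warm against cold cells. With no low-count filter they were 2 and 1 in the 2 bulk comparisons, 14 in cryopreservation after warm dissociation, 1 in methanol-fixed warm against cold cells, 7 for SN_FANS_1x2000g against SN_sucrose, and 2 and 6 for the interactions of cryopreservation with dissociation and with experiment. The exact test gave 2 and 1 in the bulk comparisons. In methanol after warm dissociation 20 barcodes per library gave 2 and leaving out the barcodes with most UMIs gave 1. The cause was not tested.

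With a replicate block on the codes in the barcode names, calls numbered 4 (fresh warm against cold), 11 and 11 (cryopreservation after cold and warm dissociation), 16 and 9 (methanol after cold and warm dissociation), 15 (cryopreserved warm against cold) 1 (methanol-fixed warm against cold), and 1 and 0 for the interactions of cryopreservation and methanol with dissociation. No paired analysis was possible for bulk and Balb/c results because no code recurs between their groups, and no block was fitted for the interaction with experiment.

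Leaving out 1 library at a time, calls ranged from 1 to 1 in warm against cold bulk, 0 to 1 in suspension against intact kidney (1 without suspension 3), 1 to 5 in fresh warm against cold cells (2, 1, 1 and 2 without warm 1, cold 2, warm 2 and cold 3), 9 to 15 in methanol after cold dissociation (9 without fresh 1 or methanol 2), 0 to 6 after warm dissociation (2, 3 and 0 without fresh 1, fresh 3 and methanol 2), 6 to 12 in cryopreserved warm against cold (8 without warm 1, 6 without cold 2), 1 to 2 in methanol-fixed warm against cold (1 without any cold library or warm 1) and 0 to 1 in Balb/c female cryopreservation (0 without cryopreserved 2). They ranged from 14 to 23 for SN_FANS_1x2000g against SN_FANS_3x500g (14, 14 and 15 without 3x500g 3, 1x2000g 1 and 1x2000g 3), 5 to 12 for SN_sucrose (5 without 3x500g 3 or sucrose 1), 0 to 5 for SN_FANS_1x2000g against SN_sucrose (0, 1, 0 and 1 without 1x2000g 1 and 3 and sucrose 1 and 3), 1 to 2 for the interaction with dissociation (2 without cold cryopreserved 1) and 1 to 4 for that with experiment (1 without cold fresh 2). Uncalled bulk differences changed sign: in warm against cold *Hspa5* (-0.049 to 0.344), *Asns* (-0.024 to 0.472) and *Hsp90b1* (-0.112 to 0.122, with -0.016 without cold 1), and in suspension against intact *Asns* (-0.125 to 0.004), *Ddit3* (-0.081 to 0.142, with -0.044 without intact 1) and *Herpud1* (-0.106 to 0.008).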

Other observations

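Lists beside the members differed between protocols in these data. Immediate early genes, which answer many signals within minutes, were higher in 45 of 102 pairs of gene and class in SN_sucrose than in SN_FANS_3x500g nuclei and lower in 0 (median log2 difference 0.75 against 0.00 over all genes), and were lower in 20 of 104 and higher in 0 for SN_FANS_1x2000g against SN_sucrose. For SN_FANS_1x2000g against SN_FANS_3x500g, 15 of 99 pairs were higher and 0 lower. The shares of all pairs are given above with each comparison of nuclei protocols. The difference of immediate early genes on cryopreservation was lower after warm than after cold dissociation in 45 of 78 pairs, by the interaction term, where 0.482% of all pairs were lower. *Ppp1r15a* was lower by the same term in 5 of 8 classes. Of 83 pairs of amino acid genes, 23 were higher in SN_sucrose than in SN_FANS_3x500g nuclei, where 10.4% of all pairs were, and most of these were the transporter genes *Slc3a2* (11 of 12 classes) and *Slc38a2* (9 of 12).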
